A study of Mus musculus with 9 samples.

Results

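The genes described here encode the proteins of the mitochondrial ribosome and of the machines that carry proteins into mitochondria, in mouse embryonic stem cells (ESCs) that differed in their dose of Myc. Members were all protein-coding genes whose symbol begins with Mrpl, Mrps, Timm or Tomm followed by a number, and 103 of the 35771 genes in the deposited table met this rule. The ribosomal part holds 78 of them, 49 Mrpl genes, named for the large subunit, and 29 Mrps genes, named for the small subunit. Genes were grouped by symbol, although Mrps30 and Mrps18a are known to encode proteins of the large subunit in mammals. The import part holds 25, namely 10 Tomm genes, named for the outer membrane, 8 Timm genes of the inner membrane and 7 Timm genes of the small chaperones between the membranes. Tomm34, a co-chaperone of the cytosol, was counted with the outer membrane genes by its symbol. All 78 ribosomal members and 23 import members had enough counts to be tested; Tomm20l and Timm8a2 did not. The rule itself uses no measured value.

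All cells came from a line of mixed background, homozygous for the iMOS T1-Myc allele, which marks extra copies of Myc with the yellow fluorescent protein EYFP, and carrying RERT, an allele that makes Cre recombinase depend on tamoxifen. Cells with 2 extra copies of Myc and EYFP and cells with no extra copy were sorted by EYFP from the same kind of mosaic culture, induced with 20 µM 4-hydroxytamoxifen for 24 h and sorted 24 h after its removal; such cultures also hold cells with 1 extra copy. Uninduced cultures of that line were sorted as the control. Their labels repeat the treatment text, so their group was read from their titles. Each group had 3 libraries of single-end RNA-seq reads of 75 bp, and the labels do not say whether these were separate cultures, so p-values measure the spread between these libraries. The cells with no extra copy thus met the drug and grew in a mosaic culture like the cells with 2 extra copies, while uninduced cells, by their titles, were not induced.

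Mitochondria make a few proteins of the respiratory chain on their own ribosomes, whose RNA is encoded by mitochondrial DNA but whose proteins are encoded in the nucleus, made in the cytosol and imported. Import begins at the TOM complex of the outer membrane, where receptors hand precursors to a channel; the TIM23 complex then passes proteins with a presequence into the matrix, and small TIM chaperones guide carrier proteins to the TIM22 complex of the inner membrane. Myc is a transcription factor that binds, with its partner Max, to E-box sequences, and genes for mitochondrial biogenesis and growth are among those it is known to bind.

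Levels are CPM, counts scaled to a common library total after TMM scaling, listed in the order of replicates 1, 2 and 3. Every adjusted p is from the quasi-likelihood F-test of edgeR with Benjamini-Hochberg adjustment over the 13424 genes tested, unless another test is named, and below 0.05 a gene counts as called, higher or lower. Library totals ran from 4165286 to 8872303 counts. Myc itself averaged 142.2 CPM in cells with 2 extra copies, 31.6 CPM in cells with no extra copy and 13.3 CPM in uninduced cells. Replicate 1 with 2 extra copies stood apart from the other libraries of its group, with a chi-square per degree of freedom of 2.61 and 2.97 against 1.36 to 1.80 for the remaining pairs. Summed ESC markers (8 of 8 tested) were at 3246 to 3436 CPM with 2 extra copies, 3523 to 3585 CPM with no extra copy and 3396 to 3446 CPM in uninduced cells. Fibroblast markers (5 of 9 tested) summed to 47.2 to 53.6 CPM with 2 extra copies, 71.7 to 82.1 CPM with no extra copy and 30.8 to 31.9 CPM in uninduced cells. Trophectoderm markers (4 of 7 tested) summed to 186 to 202 CPM with 2 extra copies, 213 to 239 CPM with no extra copy and 147 to 160.1 CPM in uninduced cells. Extraembryonic endoderm markers (4 of 8 tested) summed to 11.3 to 17.2 CPM with 2 extra copies, 18.5 to 22.6 CPM with no extra copy and 18.1 to 19.7 CPM in uninduced cells. The sums cover every listed marker, tested or not. Calls follow in the order of 2 extra against no extra copy, 2 extra copies against uninduced cells and no extra copy against uninduced cells. Across all genes tested, 8.30%, 12.8% and 7.10% were called higher in that order, and 7.70%, 12.1% and 6.39% lower. Of ESC markers 0, 1 and 4 were higher and 4, 2 and 2 lower. Fibroblast markers had 0, 3 and 3 higher and 2, 0 and 0 lower. Trophectoderm had 0, 2 and 2 higher and 3, 0 and 0 lower, and endoderm 0, 0 and 0 higher and 1, 2 and 0 lower. No marker was at 0 in every library, and the part of these markers in the results for the members was not tested. In such bulk samples, fewer cells of a type and less RNA per cell cannot be told apart.

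Many members were higher in cells with 2 extra copies than in either other group, by small amounts. Against cells with no extra copy, 9 of 23 import members and 14 of 78 ribosomal members rose, while 8.30% of all genes tested were called higher. No member was called lower, against 7.70% of all genes; none reached an unadjusted p below 0.05 in that direction, and DESeq2 called none lower either. The median log2 change was 0.16 for the import part and 0.11 for the ribosomal part, beside -0.01 for all genes tested. Scaled by library size without TMM, 774 genes were called higher and 1360 lower, against 1114 and 1034 with TMM, and the member medians were then 0.12 for import and 0.08 for the ribosome. DESeq2 called 6 import and 5 ribosomal members higher, and 643 of all genes, where edgeR called 9, 14 and 1114. The ribosomal count thus fell more in proportion than that of all genes, so the ribosomal excess over all genes was smaller with DESeq2. The ribosomal count was 7 without replicate 2 with no extra copy, when 750 genes in all were called higher. Without replicate 1 with 2 extra copies, the library that stood apart, 12 import and 21 ribosomal members rose. The number of all genes called higher moved as well, from 750 to 1466 when 1 library was left out.

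Against uninduced cells, 15 of 23 import members and 32 of 78 ribosomal members rose in cells with 2 extra copies, while 12.8% of all genes tested were called higher. Again no member was called lower, against 12.1% of all genes, also at an unadjusted p and with DESeq2. Median log2 changes were 0.23 for import and 0.15 for the ribosome, beside -0.01 for all genes. DESeq2 called 12 import and 20 ribosomal members higher, and 1088 of all genes. Without replicate 1 with 2 extra copies, the edgeR counts of members were 15 and 36. For all genes, 1306 to 2004 were called higher when 1 library was left out.

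The comparison of cells with no extra copy against uninduced cells gave fewer calls. There 6 of 23 import members and 6 of 78 ribosomal members rose, while 7.10% of all genes tested were called higher. The ribosomal share of 7.69% was near that of all genes, and the import share was 26.1%. Mrpl24 was the member that fell, against 6.39% of all genes called lower. Median log2 changes were 0.10 for import and 0.06 for the ribosome, beside 0.00 for all genes. These counts rested on single libraries. The import count was 2 without uninduced replicate 1, 3 without uninduced replicate 2, 2 without replicate 2 with no extra copy and 3 without replicate 3 with no extra copy. The ribosomal count was 3 without uninduced replicate 2, 3 without replicate 1 with no extra copy and 2 without replicate 2 with no extra copy. For all genes, 622 to 1083 were called higher when 1 library was left out. DESeq2 called 1 member higher in each part, Tomm5 and Mrpl54, and 399 of all genes.

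**Figure D1:**
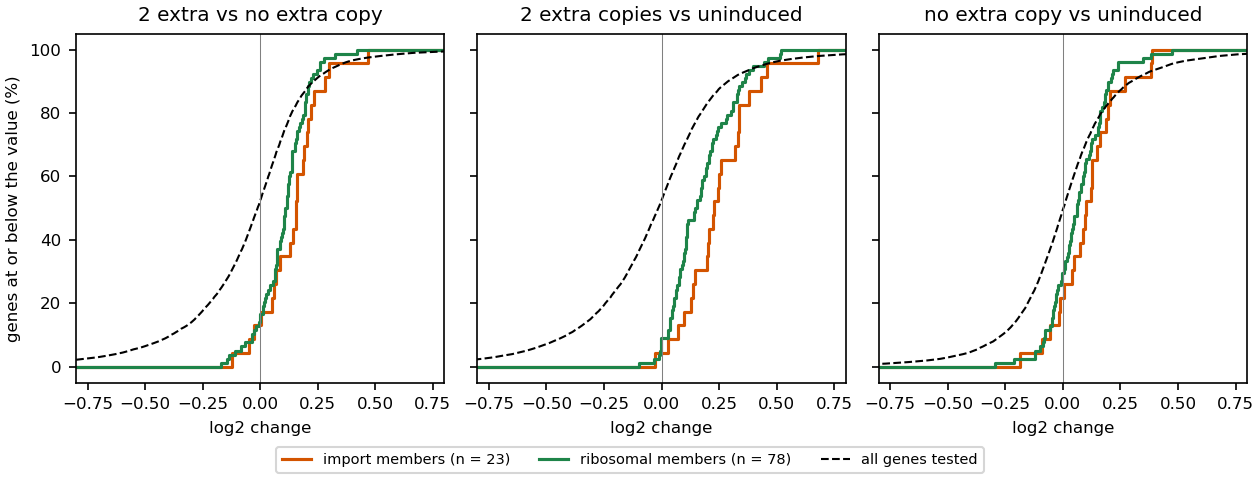
Cumulative share of genes (y axis, %) at or below each log2 change (x axis) in the 3 comparisons, for 23 import members, 78 ribosomal members and all genes tested (dashed). Both member curves lie to the right of the dashed curve around its middle, with medians of 0.16 and 0.11 for 2 extra copies against no extra copy, and no member reached a 2-fold change.

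The 3 comparisons share libraries, since each group enters 2 of them, so their values are given side by side and not as independent results. Across them, 2 import members (Tomm5 and Tomm40) and 1 ribosomal member (Mrpl18) were called every time, while 8 import and 43 ribosomal members were never called. No member changed 2-fold in any comparison; the largest called change was 0.68 on the log2 scale, of Tomm5. Levels also leaned with transcript length, by 0.0045, -0.042 and -0.053 log2 units per doubling of length in the libraries with 2 extra copies, by -0.0015, 0.0062 and 0.017 in those with no extra copy and by 0.041, 0.014 and 0.014 in uninduced ones. Member transcripts are short, with a median of 1224 bases for the ribosome and 1515 for import, beside 2692 for all genes tested. With that trend removed from each library, 9 import and 14 ribosomal members rose with 2 extra copies against no extra copy, and 15 and 27 rose against uninduced cells. The comparison of no extra copy with uninduced cells then had 5 and 6 rises.

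The summed level describes each part as a whole, weighted toward its abundant members. The 78 ribosomal genes summed to 4446, 4598 and 4572 CPM with 2 extra copies, 4240, 4222 and 4161 CPM with no extra copy and 3962, 4102 and 4127 CPM in uninduced cells. The 25 import genes summed to 2451, 2502 and 2550 CPM with 2 extra copies, 2200, 2259 and 2196 CPM with no extra copy and 2034, 2105 and 2140 CPM in uninduced cells. In both parts the 3 groups did not overlap, and cells with 2 extra copies were highest. The ratio of the import sum to the ribosomal sum was also highest in cells with 2 extra copies, at 0.551, 0.544 and 0.558, against 0.519, 0.535 and 0.528 in cells with no extra copy and 0.513, 0.513 and 0.519 in uninduced cells. Tomm20 and Tomm70a, which add most to the import sum, were left out as a check chosen after their values were seen. The ratio was then 0.364, 0.362 and 0.372 in cells with 2 extra copies, 0.347, 0.361 and 0.359 in cells with no extra copy and 0.337, 0.336 and 0.346 in uninduced cells, so the groups still did not overlap, by a narrow margin. The sum for the large subunit over that for the small subunit was 1.86 to 1.89 with 2 extra copies, 1.85 to 1.90 with no extra copy and 1.87 to 1.92 in uninduced cells, and these ranges overlapped.

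Promoter sequences were examined because Myc binds the E-box. RefSeq windows on GRCm38.p6, from 250 bases before to 50 after a gene's start, were found for 91 members. The E-box CACGTG, which reads the same on both strands, was in the windows of 5 of 22 import members (22.7%) and 5 of 69 ribosomal members (7.25%), beside 8.09% of 27025 genes. It was in 7 of 42 members called higher with 2 extra copies against uninduced cells (16.7%) and in 2 of 47 tested members that were not (4.26%). For the comparison with cells with no extra copy the shares were 3 of 23 (13.0%) and 6 of 66 (9.09%). The 91 members had 99 windows, and a gene counted once if any of its windows held the motif. The 27025 genes are all those with a window, tested here or not. The ETS-type motif CCGGAAGT, on either strand, was in 18 of 91 members (19.8%) and 4.31% of those genes, and the YY1 motif, on either strand, in 6 (6.59%) and 0.755%. The NRF1 palindrome was in 3 (3.3%) and 1.07%. Such matches are descriptions of the letters in a window.

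As examples, windows are shown of Timm9, Timm10, Timm8a1 and Mrpl37, called higher with 2 extra copies against uninduced cells and holding an E-box. Tomm20, Mrpl20 and Mrpl36 were also called there and hold an E-box, but are not shown. Against cells with no extra copy, Timm9 and Mrpl37 were called higher, while Timm10 and Timm8a1 were not. Beside them is the window of Tomm5, the member with the largest change, in which none of the 4 motifs was found. Capitals mark E-boxes, the ETS-type motif of Timm10 and the YY1 motif of Mrpl37. The window of Timm9 is chr12:71136626-71136925 (minus strand), with E-boxes at positions -58 and -1 from the start. That of Timm10 is chr2:84826771-84827070 (plus strand), with the ETS-type motif at 16 and the E-box at 28. That of Timm8a1 is chrX:134541621-134541920 (minus strand), with E-boxes at -236 and 24. That of Mrpl37 is chr4:107066817-107067116 (minus strand), with the E-box at -162 and the YY1 motif at 26. That of Tomm5 is chr4:45108064-45108363 (minus strand).
Timm9: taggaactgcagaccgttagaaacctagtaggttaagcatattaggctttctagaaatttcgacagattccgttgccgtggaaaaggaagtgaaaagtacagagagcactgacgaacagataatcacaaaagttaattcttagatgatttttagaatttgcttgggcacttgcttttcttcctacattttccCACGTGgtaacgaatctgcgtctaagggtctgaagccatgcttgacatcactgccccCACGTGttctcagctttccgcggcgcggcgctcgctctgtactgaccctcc
Timm10: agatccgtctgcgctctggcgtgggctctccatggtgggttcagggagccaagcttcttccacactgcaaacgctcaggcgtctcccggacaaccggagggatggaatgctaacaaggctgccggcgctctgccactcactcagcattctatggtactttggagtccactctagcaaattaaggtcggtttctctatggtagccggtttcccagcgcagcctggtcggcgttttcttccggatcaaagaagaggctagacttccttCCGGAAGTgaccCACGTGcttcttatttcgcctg
Timm8a1: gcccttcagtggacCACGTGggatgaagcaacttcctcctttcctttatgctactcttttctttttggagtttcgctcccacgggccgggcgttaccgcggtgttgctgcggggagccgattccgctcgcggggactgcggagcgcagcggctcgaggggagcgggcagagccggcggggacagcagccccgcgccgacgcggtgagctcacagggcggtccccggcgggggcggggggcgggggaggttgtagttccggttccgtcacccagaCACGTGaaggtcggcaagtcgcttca
Mrpl37: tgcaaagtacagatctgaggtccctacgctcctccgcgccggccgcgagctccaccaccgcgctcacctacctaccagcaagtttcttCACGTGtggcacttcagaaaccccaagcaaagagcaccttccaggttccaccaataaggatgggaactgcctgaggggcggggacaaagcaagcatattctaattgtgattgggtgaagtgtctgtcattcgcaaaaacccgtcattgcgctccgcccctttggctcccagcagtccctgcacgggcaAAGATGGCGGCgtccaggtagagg
Tomm5: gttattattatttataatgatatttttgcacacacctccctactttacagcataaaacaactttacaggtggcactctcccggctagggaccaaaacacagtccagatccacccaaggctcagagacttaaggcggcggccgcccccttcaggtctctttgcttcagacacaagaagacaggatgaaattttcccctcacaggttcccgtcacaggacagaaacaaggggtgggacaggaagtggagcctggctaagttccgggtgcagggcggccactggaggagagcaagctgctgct

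The outer membrane translocase held the member that changed most. Of 9 tested Tomm genes, 5 rose with 2 extra copies against no extra copy (Tomm5, Tomm6, Tomm20, Tomm40 and Tomm70a), and 7 rose against uninduced cells, where Tomm7 and Tomm22 joined them. Tomm5, Tomm22 and Tomm40 rose with no extra copy against uninduced cells. Median log2 changes of the 9 were 0.16, 0.25 and 0.10 in these comparisons. The shares that rose were 55.6%, 77.8% and 33.3%, beside 8.30%, 12.8% and 7.10% of all genes tested. The count of 7 was the same whichever library was left out; DESeq2 called 4, 7 and 1.

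Tomm5 (ENSMUSG00000078713, chr4:45105208-45108114) encodes a small subunit that helps to hold the TOM complex together. It was at 98.5, 98.3 and 100.2 CPM with 2 extra copies, 80.4, 80.8 and 80.5 CPM with no extra copy and 57.9, 63.6 and 63.7 CPM in uninduced cells. The 3 groups were far apart compared with the spread inside each. The log2 change was 0.30 ± 0.054 (SE) with 2 extra copies against no extra copy (adjusted p = 0.000183) and 0.68 ± 0.055 against uninduced cells (adjusted p = 3.35e-11). For no extra copy against uninduced cells it was 0.38 ± 0.057 (adjusted p = 8.41e-06). These calls held under every alternative tried. Tomm6 (ENSMUSG00000033475, chr17:47686646-47688386), another small subunit, was at 111, 113 and 122 CPM with 2 extra copies, 103, 99.2 and 96.7 CPM with no extra copy and 89.8, 89.1 and 95.4 CPM in uninduced cells. The groups did not overlap, and the changes with 2 extra copies were 0.21 ± 0.052 (adjusted p = 0.00491) and 0.34 ± 0.052 (adjusted p = 8.51e-06). Its reads are uncertain, since Gm21981 shares 75.9% of its exonic bases on the same strand, although Gm21981 itself averaged 2.5 expected counts. Tomm7, the remaining small subunit, was at 123, 119 and 124 CPM with 2 extra copies, 105, 119.8 and 98.1 CPM with no extra copy and 106, 104 and 97.9 CPM in uninduced cells. It was called against uninduced cells only, at 0.25 ± 0.056 (adjusted p = 0.0015); replicate 2 with no extra copy lay within the range of the cells with 2 extra copies.

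Of the receptors, Tomm20 and Tomm70a were called with 2 extra copies against both other groups. Tomm20 (ENSMUSG00000093904, chr8:126930667-126945844), the receptor for presequences, was at 460.2, 469 and 459 CPM with 2 extra copies, 410.2, 405 and 391 CPM with no extra copy and 384, 399.9 and 383 CPM in uninduced cells. Tomm70a (ENSMUSG00000022752, chr16:57121703-57156705), the receptor for carrier proteins, was at 371, 369.5 and 390.3 CPM with 2 extra copies, 319, 329.8 and 312 CPM with no extra copy and 316, 325 and 329 CPM in uninduced cells. Both separated the cells with 2 extra copies from the rest, while the other two groups overlapped. Tomm20 changed by 0.20 ± 0.036 (adjusted p = 0.000154) against no extra copy and 0.25 ± 0.036 (adjusted p = 3.1e-06) against uninduced cells. For Tomm70a the changes were 0.23 ± 0.039 (adjusted p = 5.08e-05) and 0.22 ± 0.038 (adjusted p = 4.33e-05). Tomm22, the central receptor, was at 116, 119.8 and 124 CPM with 2 extra copies, 105, 112 and 111 CPM with no extra copy and 93.5, 97.3 and 94.5 CPM in uninduced cells. The groups did not overlap. Tomm22 rose against uninduced cells in both induced populations, by 0.33 ± 0.049 with 2 extra copies (adjusted p = 4.16e-06) and, in cells with no extra copy, by 0.20 ± 0.050 (adjusted p = 0.00417; 0.052 with DESeq2). Between the induced populations its change was 0.13 ± 0.049 (adjusted p = 0.0694).

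Tomm40 (ENSMUSG00000002984, chr7:19701313-19715438) encodes the channel. It was at 236, 259 and 246 CPM with 2 extra copies, 209, 227 and 227 CPM with no extra copy and 190.5, 196 and 208 CPM in uninduced cells. The groups followed one another without overlap. The changes were 0.16 ± 0.045 against no extra copy (adjusted p = 0.0126) and 0.32 ± 0.044 against uninduced cells (adjusted p = 1.65e-06). The change with no extra copy against uninduced cells was 0.16 ± 0.045 (adjusted p = 0.013). The first call was lost without replicate 1 with no extra copy (adjusted p = 0.115) or replicate 2 with 2 extra copies (0.0963). The last was lost without replicate 2 or 3 with no extra copy (0.109 and 0.0674) or uninduced replicate 1 or 2 (0.0938 and 0.0684), and its value fell to 0.07 with the GC trend removed (0.272). DESeq2 lost the first and the last call of Tomm40 (0.0507 and 0.0695). Its relative Tomm40l and Tomm34, a co-chaperone of the cytosol, were not called. Tomm40l was at 24.0, 25.1 and 26.8 CPM with 2 extra copies, 24.8, 27.7 and 24.1 CPM with no extra copy and 20.1, 25.8 and 26.5 CPM in uninduced cells, with overlap throughout. Tomm34 was at 57.5, 64.5 and 63.5 CPM with 2 extra copies, 54.6, 53.7 and 60.0 CPM with no extra copy and 60.3, 62.4 and 67.1 CPM in uninduced cells, and its change with no extra copy against uninduced cells was -0.18 ± 0.067 (adjusted p = 0.0635). Tomm20l had no count in 7 of 9 libraries and 1 count in each of the others.

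**Figure D2:**
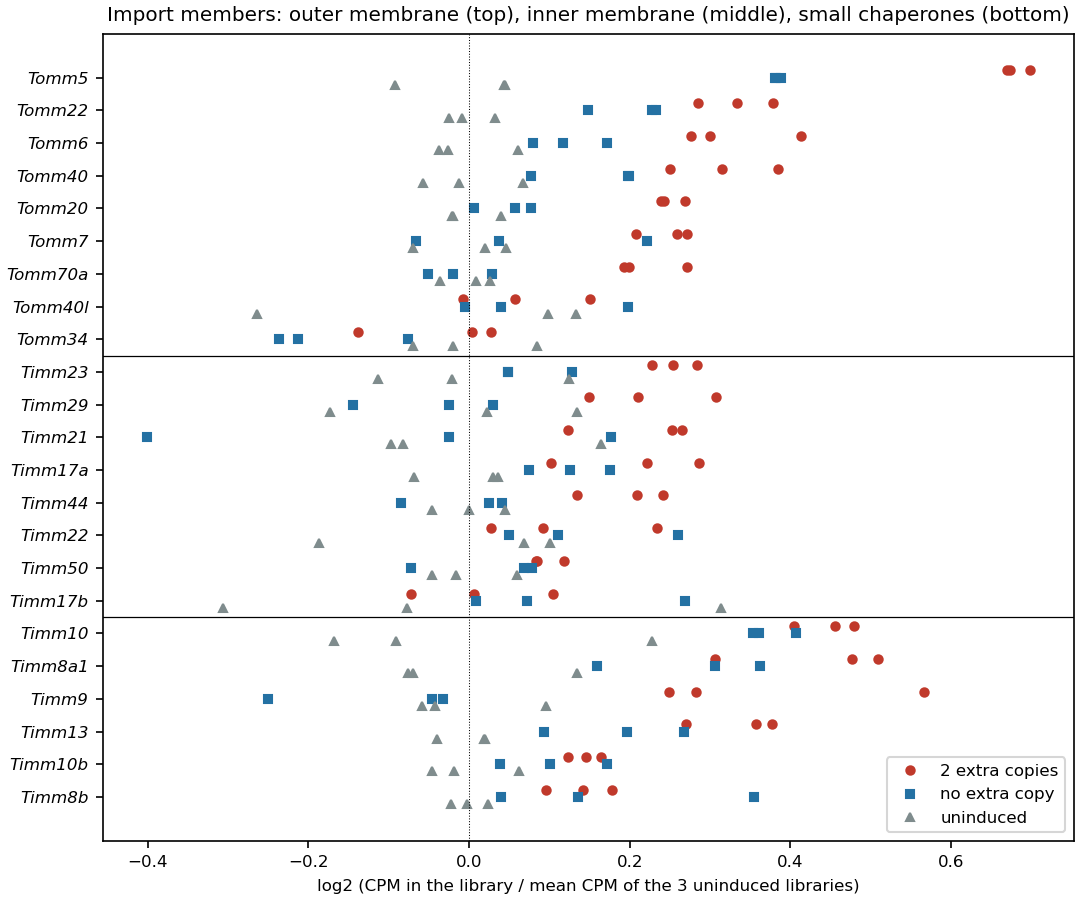
Each of the 23 tested import members (rows) in each library, as the log2 ratio of its CPM to the mean CPM of the 3 uninduced libraries (x axis); circles are 2 extra copies, squares no extra copy and triangles uninduced. Tomm5 stands farthest to the right, and Tomm34 has its no-extra-copy libraries below the uninduced ones.

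At the inner membrane, 3 of 8 Timm genes rose with 2 extra copies against no extra copy (Timm23, Timm29 and Timm44) and 4 against uninduced cells, with Timm17a added. None was called by edgeR with no extra copy against uninduced cells, where 1 was higher at an unadjusted p below 0.05. The shares that rose were 37.5%, 50% and 0%, beside 8.30%, 12.8% and 7.10% of all genes tested. The median log2 changes were 0.14, 0.20 and 0.06. The first count was 1 without replicate 2 with no extra copy. The second was 2 without replicate 3 with 2 extra copies and 2 without uninduced replicate 2. For no extra copy against uninduced cells, 1 gene was called without uninduced replicate 3. DESeq2 called 1, 2 and 0.

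Timm23 (ENSMUSG00000013701, chr14:32180162-32201898), the channel of the presequence route, was at 193, 196 and 200.2 CPM with 2 extra copies, 170.2, 170.2 and 179.8 CPM with no extra copy and 152, 162 and 179 CPM in uninduced cells. It was higher with 2 extra copies in every library than in any other. Its changes were 0.18 ± 0.048 against no extra copy (adjusted p = 0.00673; 0.0519 without replicate 2 with no extra copy) and 0.26 ± 0.047 against uninduced cells (adjusted p = 0.000105). A close copy, Gm10273, was given 68.8 expected counts in uninduced replicate 2 and none in the other libraries, so how reads were split between them in that library is uncertain. Timm44, which tethers the matrix heat shock protein to the channel, was at 91.7, 85.1 and 89.7 CPM with 2 extra copies, 78.9, 79.8 and 73.1 CPM with no extra copy and 80.0, 75.1 and 77.6 CPM in uninduced cells. The cells with 2 extra copies lay above the other groups, which overlapped. Its changes were 0.19 ± 0.057 (adjusted p = 0.0172; 0.0779 without replicate 3 with no extra copy and 0.0572 with library size alone) and 0.20 ± 0.055 (adjusted p = 0.00791; 0.0525 without uninduced replicate 2). Both calls were lost with DESeq2 (0.102 and 0.0573).

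Timm17a, a scaffold of the same channel, was at 88.0, 95.6 and 99.96 CPM with 2 extra copies, 86.4, 89.4 and 92.6 CPM with no extra copy and 84.1, 83.7 and 78.2 CPM in uninduced cells. Its change against uninduced cells was 0.21 ± 0.056 (adjusted p = 0.00597; 0.0636 without replicate 3 with 2 extra copies). The 2 induced populations overlapped. Its paralogue Timm17b, the receptor Timm50 and Timm21 were not called in any comparison. Timm50 was at 96.6, 96.7 and 98.9 CPM with 2 extra copies, 96.2, 95.6 and 86.7 CPM with no extra copy and 88.3, 90.1 and 94.98 CPM in uninduced cells. Timm21 was at 16.5, 16.6 and 15.1 CPM with 2 extra copies, 13.6, 15.6 and 10.5 CPM with no extra copy and 13.1, 15.5 and 12.9 CPM in uninduced cells. The 3 groups of Timm21 overlapped. The Timm50 libraries with 2 extra copies lay just above the others, by 0.06 ± 0.054 (adjusted p = 0.502) and 0.10 ± 0.053 (adjusted p = 0.178).

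Of the carrier route, Timm29 was called and Timm22 was not. Timm29, known in human cells as a part of the TIM22 complex, was at 46.8, 52.2 and 48.8 CPM with 2 extra copies, 41.5, 38.2 and 43.1 CPM with no extra copy and 42.9, 37.4 and 46.3 CPM in uninduced cells. The cells with 2 extra copies lay above all others, by 0.28 ± 0.081 (adjusted p = 0.014) and 0.23 ± 0.078 (adjusted p = 0.0293). The first call was lost without replicate 2 with no extra copy (0.139) or replicate 2 with 2 extra copies (0.0753). The second was lost without replicate 2 or 3 with 2 extra copies (0.13 and 0.0613) or uninduced replicate 1 or 2 (0.0547 and 0.237). Both were lost with DESeq2 (0.0959 and 0.137). Timm22 itself, the translocase, was at 31.4, 30.0 and 34.6 CPM with 2 extra copies, 31.8, 30.5 and 35.2 CPM with no extra copy and 25.9, 30.9 and 31.6 CPM in uninduced cells. Its groups overlapped throughout, and the change between the induced populations was 0.00 ± 0.093.

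Among the small chaperones, which carry hydrophobic precursors across the space between the membranes, 1 of 6 tested genes rose with 2 extra copies against no extra copy (Timm9). Against uninduced cells 4 rose (Timm8a1, Timm9, Timm10 and Timm13), and with no extra copy against uninduced cells 3 rose (Timm8a1, Timm10 and Timm13). In the order of 2 extra copies against no extra copy, against uninduced cells and no extra copy against uninduced cells, 16.7%, 66.7% and 50% rose. Of all genes tested, 8.30%, 12.8% and 7.10% did. Median log2 changes were 0.11, 0.36 and 0.19. The last count was 0 without uninduced replicate 1 or without replicate 2 with no extra copy, and 1 without uninduced replicate 2 or without replicate 3 with no extra copy. The first was 2 without replicate 1 with 2 extra copies. DESeq2 called 1, 3 and 0.

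Timm9 and Timm10 form one hexamer. Timm9 (ENSMUSG00000021079, chr12:71123173-71136684) was at 25.2, 25.8 and 31.4 CPM with 2 extra copies, 20.6, 20.8 and 17.9 CPM with no extra copy and 20.4, 22.7 and 20.6 CPM in uninduced cells. Timm10 (ENSMUSG00000027076, chr2:84826997-84830213) was at 24.2, 25.5 and 25.1 CPM with 2 extra copies, 23.5, 24.2 and 23.3 CPM with no extra copy and 17.1, 16.3 and 21.4 CPM in uninduced cells. Timm9 stood out with 2 extra copies, while for Timm10 the induced populations overlapped and both lay above uninduced cells. Timm9 changed by 0.47 ± 0.11 against no extra copy (adjusted p = 0.00196), the largest rise of a member in that comparison, and by 0.38 ± 0.10 against uninduced cells (adjusted p = 0.00559; 0.0943 without replicate 3 with 2 extra copies). Its change with no extra copy against uninduced cells was -0.09 ± 0.11 (adjusted p = 0.653). Timm10 changed by 0.07 ± 0.10 (adjusted p = 0.722), 0.46 ± 0.11 (adjusted p = 0.00139) and 0.39 ± 0.11 (adjusted p = 0.0109) in the 3 comparisons. Its last call was lost without uninduced replicate 1 or 2 (0.0608 and 0.101) or replicate 2 with no extra copy (0.0656). DESeq2 also lost that call (0.103), and the call of Timm9 against uninduced cells (0.0513). Whether Timm9 and Timm10 differ in response was not tested.

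Timm8a1 and Timm13 are partners in the other hexamer and, like Timm10, were called against uninduced cells in both induced populations. Timm8a1 was at 67.0, 58.2 and 65.5 CPM with 2 extra copies, 52.5, 58.2 and 60.5 CPM with no extra copy and 44.9, 51.7 and 44.6 CPM in uninduced cells. Timm13 was at 85.9, 91.2 and 92.6 CPM with 2 extra copies, 76.0, 85.8 and 81.7 CPM with no extra copy and 69.3, 72.2 and 72.2 CPM in uninduced cells. Uninduced cells were lowest in both genes without overlap. Against uninduced cells, Timm8a1 changed by 0.43 ± 0.073 with 2 extra copies (adjusted p = 3.6e-05) and 0.27 ± 0.074 with no extra copy (adjusted p = 0.0118), and Timm13 by 0.34 ± 0.057 (adjusted p = 3.61e-05) and 0.19 ± 0.058 (adjusted p = 0.0209). Between the induced populations the values were 0.16 ± 0.073 (adjusted p = 0.134) and 0.14 ± 0.057 (adjusted p = 0.0884). With no extra copy, the call of Timm8a1 was lost without replicate 2 or 3 with no extra copy (0.0812 and 0.0577) or uninduced replicate 1 or 3 (0.0724 and 0.0668). That of Timm13 was lost without replicate 2 or 3 with no extra copy (0.222 and 0.0517) or uninduced replicate 1 or 2 (0.0938 and 0.0541), with the trend over transcript length removed (0.109) and with the GC trend removed, where its value was 0.10 (0.24). A replicate block with the length trend removed lost it too (0.1004). With DESeq2 the adjusted p of these 2 calls was 0.0797 for Timm8a1 and 0.1545 for Timm13. Timm8b and Timm10b were not called in any comparison, and Timm8a2, a close relative of Timm8a1, stayed at 0.351 to 1.53 CPM.

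**Figure D3:**
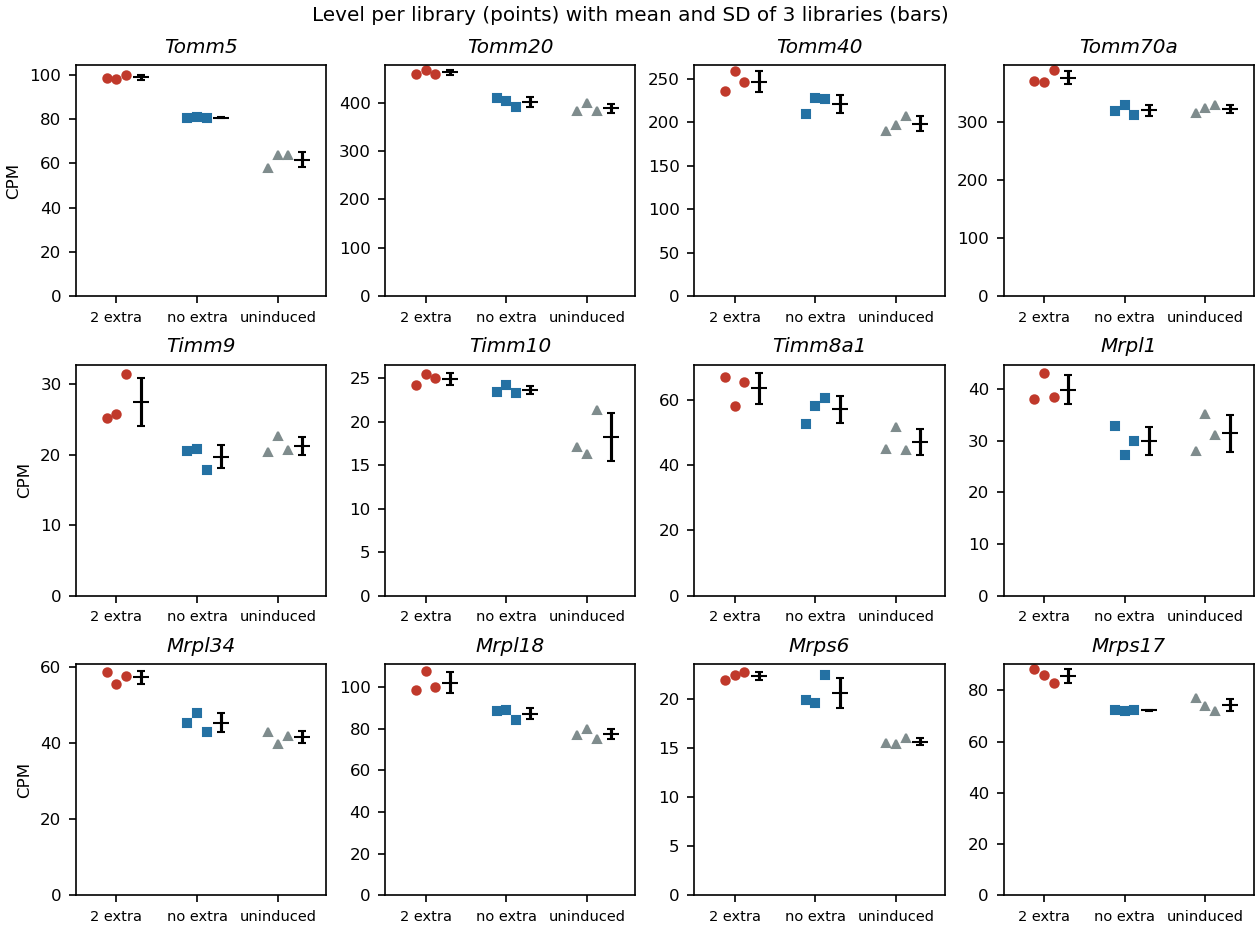
CPM (y axis, from 0) of 12 members in each library, with mean and SD of the 3 libraries as bars, for cells with 2 extra copies, no extra copy and no induction (x axis). Tomm5 falls into 3 separate levels, Tomm70a and Timm9 are higher with 2 extra copies alone, and Timm10 is lower in uninduced cells alone.

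In the large subunit of the ribosome, 10 of 49 members rose with 2 extra copies against no extra copy, 22 rose against uninduced cells, and 4 rose and 1 fell with no extra copy against uninduced cells. The shares that rose were 20.4%, 44.9% and 8.16%, beside 8.30%, 12.8% and 7.10% of all genes tested. In the last comparison the share that rose was thus near that of all genes, and 2.04% fell, beside 6.39% of all genes. Median log2 changes were 0.11, 0.15 and 0.06. The first count was 6 without replicate 2 with no extra copy, and the second was 13 without uninduced replicate 1. The last was 2 without replicate 1 with no extra copy, 1 without replicate 2 with no extra copy and 1 without uninduced replicate 3. DESeq2 called 4, 12 and 1 higher. The 28 members that carry a bacterial protein's number had 7, 15 and 3 rises and a median of 0.12, 0.18 and 0.08. The 21 with later numbers, mostly proteins that bacteria lack, had 3, 7 and 1 rises and a median of 0.06, 0.08 and 0.01.

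Mrpl34, Mrpl1 and Mrpl22 had the largest rises with 2 extra copies over no extra copy. Mrpl1 (ENSMUSG00000029486, chr5:96209493-96266727), of the stalk where spent tRNA leaves, was at 38.0, 43.2 and 38.5 CPM with 2 extra copies, 32.8, 27.4 and 30.0 CPM with no extra copy and 28.1, 35.2 and 31.1 CPM in uninduced cells. It was higher with 2 extra copies than in either other group, and those overlapped. Its changes were 0.42 ± 0.093 (adjusted p = 0.00162) and 0.34 ± 0.090 (adjusted p = 0.00528; 0.0557 without uninduced replicate 1). Mrpl34 (ENSMUSG00000034880, chr8:71464959-71465747), a small basic protein bound to the large ribosomal RNA, was at 58.5, 55.5 and 57.7 CPM with 2 extra copies, 45.2, 47.9 and 42.9 CPM with no extra copy and 43.0, 39.8 and 41.9 CPM in uninduced cells. The cells with 2 extra copies again lay apart, with changes of 0.32 ± 0.070 (adjusted p = 0.0012) and 0.46 ± 0.069 (adjusted p = 4.95e-06) that held under every alternative. Mrpl12, at the counterpart of the bacterial stalk that recruits translation factors, was at 132, 140.4 and 133 CPM with 2 extra copies, 116, 120.5 and 113 CPM with no extra copy and 109, 113 and 110.4 CPM in uninduced cells. Its changes of 0.21 ± 0.048 (adjusted p = 0.00239) and 0.28 ± 0.047 (adjusted p = 2.45e-05) also held under every alternative.

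Mrpl11, of the stalk base, and Mrpl37, which bacteria lack, were called in the same comparisons. Mrpl11 was at 68.2, 72.8 and 70.8 CPM with 2 extra copies, 62.4, 60.2 and 57.9 CPM with no extra copy and 50.2, 59.6 and 56.2 CPM in uninduced cells. Mrpl37 was at 92.6, 94.5 and 95.6 CPM with 2 extra copies, 83.5, 81.3 and 82.4 CPM with no extra copy and 83.2, 82.0 and 79.9 CPM in uninduced cells. In both, the cells with 2 extra copies lay above the other groups, and those overlapped. Mrpl11 changed by 0.23 ± 0.067 (adjusted p = 0.0162) against no extra copy and 0.35 ± 0.066 (adjusted p = 0.000141) against uninduced cells, and the first call was lost without replicate 2 or 3 with no extra copy (0.0646 and 0.0571) or replicate 2 with 2 extra copies (0.0668). That first call was also lost with DESeq2 (0.0946). Mrpl37 changed by 0.20 ± 0.053 (adjusted p = 0.00883; 0.0557 without replicate 2 with no extra copy) and 0.21 ± 0.052 (adjusted p = 0.00311), and DESeq2 lost the first of these calls (0.0778). Further large subunit members called against uninduced cells alone were Mrpl4, Mrpl9, Mrpl10, Mrpl16, Mrpl20, Mrpl28, Mrpl36, Mrpl41, Mrpl44 and Mrpl50. Of these, Mrpl20, Mrpl36 and Mrpl50 were called under every alternative, at 0.31 ± 0.067, 0.33 ± 0.082 and 0.30 ± 0.077 (adjusted p = 0.000643, 0.00308 and 0.00516). Mrpl58, a release factor that frees chains from stalled ribosomes, was at 35.9, 37.4 and 37.2 CPM with 2 extra copies, 34.9, 38.2 and 37.1 CPM with no extra copy and 34.6, 38.1 and 40.5 CPM in uninduced cells, and was never called.

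Mrpl22 and Mrpl47, which line the region where the new chain leaves the ribosome, were called with 2 extra copies too. Mrpl22 was at 41.5, 40.5 and 50.4 CPM with 2 extra copies, 39.1, 34.7 and 36.9 CPM with no extra copy and 30.9, 31.6 and 30.6 CPM in uninduced cells. Replicate 3 with 2 extra copies was the highest, and the groups did not overlap. The change was 0.28 ± 0.085 against no extra copy (adjusted p = 0.022) and 0.52 ± 0.085 against uninduced cells (adjusted p = 2.39e-05). The first call was lost without that replicate (0.238) or without replicate 2 with no extra copy (0.171), and with DESeq2 (0.145). Mrpl47 was at 46.5, 43.0 and 42.3 CPM with 2 extra copies, 38.2, 34.5 and 38.3 CPM with no extra copy and 38.80, 37.7 and 37.1 CPM in uninduced cells. The cells with 2 extra copies were higher by 0.26 ± 0.078 (adjusted p = 0.0198) and 0.21 ± 0.075 (adjusted p = 0.0367). Its first call was lost without replicate 2 with no extra copy (0.182), and the second without any 1 of 5 libraries, namely replicate 1 or 2 with 2 extra copies (0.101 and 0.058) or uninduced replicate 1, 2 or 3 (0.0585, 0.0907 and 0.0922). DESeq2 lost both (0.1385 and 0.1684), and library size alone (0.0619) and no low-count filter (0.0626) lost the second.

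Mrpl18 (ENSMUSG00000057388, chr17:12911349-12916345) was the ribosomal member called in all 3 comparisons. It was at 98.5, 108 and 100.2 CPM with 2 extra copies, 88.4, 89.0 and 84.1 CPM with no extra copy and 77.0, 79.9 and 75.0 CPM in uninduced cells. The groups followed one another without overlap. The changes were 0.22 ± 0.054 (adjusted p = 0.00397), 0.40 ± 0.054 (adjusted p = 9.72e-07) and 0.18 ± 0.055 (adjusted p = 0.0267). The last was lost without replicate 1 or 2 with no extra copy (0.0835 and 0.137) or uninduced replicate 1 or 3 (0.0774 and 0.102), and with DESeq2 (0.178). Exons of Tcp1 on the other strand cover 10.1% of its exonic bases, and Tcp1 averaged 4508 expected counts, so unstranded counting could add reads.

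Mrpl24, near the exit of the new chain, was the member that fell. It was at 106, 95.9 and 103 CPM with 2 extra copies, 89.1, 91.3 and 84.5 CPM with no extra copy and 111, 105 and 111 CPM in uninduced cells. Cells with no extra copy were the lowest, without overlap. The change with no extra copy against uninduced cells was -0.29 ± 0.052 (adjusted p = 0.000121), a fall that held under every alternative. With 2 extra copies it was 0.19 ± 0.054 against no extra copy (adjusted p = 0.0114; 0.0537 without replicate 3 with no extra copy) and -0.10 ± 0.051 against uninduced cells (adjusted p = 0.157). DESeq2 lost the call of Mrpl24 between the induced populations (0.0708). Exons of Rrnad1 on the other strand cover 26.3% of its exonic bases. Mrpl54 was at 25.1, 23.9 and 24.9 CPM with 2 extra copies, 26.9, 27.1 and 27.9 CPM with no extra copy and 18.8, 18.4 and 21.7 CPM in uninduced cells. Both induced populations were above uninduced cells, at 0.33 ± 0.099 with 2 extra copies (adjusted p = 0.0123) and 0.48 ± 0.097 with no extra copy (adjusted p = 0.000656). The first of these was lost without uninduced replicate 1 or 2 (0.0527 and 0.0693) and with the length trend removed (0.0573), and the second held under every alternative. DESeq2 (0.0875) and a replicate block with the length trend removed (0.0632) also lost the first. Between the induced populations its change was -0.14 ± 0.096 (adjusted p = 0.338).

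Mrpl14 and Mrpl17 were called with no extra copy against uninduced cells as well. Mrpl14 was at 21.4, 23.9 and 22.9 CPM with 2 extra copies, 22.1, 24.9 and 20.96 CPM with no extra copy and 19.0, 18.9 and 16.2 CPM in uninduced cells. Mrpl17 was at 85.9, 95.6 and 87.9 CPM with 2 extra copies, 88.7, 87.8 and 91.2 CPM with no extra copy and 83.8, 81.5 and 69.3 CPM in uninduced cells. The induced populations overlapped in both, and uninduced replicate 3 was the lowest library of each. With no extra copy the changes were 0.35 ± 0.11 (adjusted p = 0.023) and 0.18 ± 0.062 (adjusted p = 0.0443), and without that library the adjusted p was 0.121 and 0.299. Mrpl14 was also lost without replicate 2 with no extra copy (0.225) and with the GC or length trend removed (0.0813 and 0.0526). Mrpl17 was lost in addition without replicate 1, 2 or 3 with no extra copy (0.108, 0.1 and 0.123), uninduced replicate 2 (0.0595) or replicate 3 with 2 extra copies (0.0594). DESeq2 lost both Mrpl14 (0.181) and Mrpl17 (0.196). Mrpl14 was lost too with a replicate block and the length trend removed (0.0601), and Mrpl17 with limma-voom (0.0792) and upper-quartile factors (0.0616). With 2 extra copies against uninduced cells the changes were 0.33 ± 0.11 (adjusted p = 0.021) and 0.19 ± 0.062 (adjusted p = 0.019). Mrpl14 was there lost without replicate 2 or 3 with 2 extra copies (0.0799 and 0.0608) or uninduced replicate 3 (0.107), and Mrpl17 without replicate 2 with 2 extra copies (0.125) or uninduced replicate 3 (0.172). DESeq2 lost Mrpl14 (0.117) and Mrpl17 (0.0809) there. Mrpl14 was also lost with the length trend removed, without and with a replicate block (0.078 and 0.0623).

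In the small subunit, 4 of 29 members rose with 2 extra copies against no extra copy (Mrps2, Mrps9, Mrps12 and Mrps17), 10 rose against uninduced cells, and 2 rose with no extra copy against uninduced cells (Mrps6 and Mrps7). The shares that rose were 13.8%, 34.5% and 6.9%, beside 8.30%, 12.8% and 7.10% of all genes tested, and the last was near that of all genes. Median log2 changes were 0.12, 0.15 and 0.06. The first count was 8 without replicate 1 with 2 extra copies, 1 without replicate 2 with no extra copy, 1 with library size alone, and 2 without replicate 2 or 3 with 2 extra copies or replicate 1 with no extra copy. The last ran from 0, without uninduced replicate 2, to 4, without replicate 1 with 2 extra copies, and was 1 without uninduced replicate 1 or replicate 1 or 2 with no extra copy. DESeq2 called 1, 8 and 0, beside 643, 1088 and 399 of all genes. The first of these, 1 of 29, was a smaller share than that of all genes with DESeq2. The 16 members with a bacterial protein's number had 4, 5 and 2 rises, and the 13 with later numbers had 0, 5 and 0 (3, 5 and 4 at an unadjusted edgeR p below 0.05), with medians of 0.12, 0.16 and 0.05 against 0.11, 0.11 and 0.09.

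Mrps17 (ENSMUSG00000034211, chr5:129715497-129722556), a protein that binds the small ribosomal RNA, was at 88.3, 86.2 and 82.9 CPM with 2 extra copies, 72.2, 72.0 and 72.4 CPM with no extra copy and 76.9, 74.1 and 71.9 CPM in uninduced cells. The cells with 2 extra copies lay above the others, which overlapped, by 0.25 ± 0.056 (adjusted p = 0.00213) against no extra copy and 0.20 ± 0.055 (adjusted p = 0.00535; 0.0507 with the length trend removed) against uninduced cells. Mrps12, at the decoding centre, was at 42.2, 53.7 and 49.2 CPM with 2 extra copies, 37.7, 40.0 and 44.5 CPM with no extra copy and 37.8, 34.0 and 34.9 CPM in uninduced cells. Replicate 1 with 2 extra copies lay within the range of the cells with no extra copy. Its changes were 0.26 ± 0.084 (adjusted p = 0.0288) and 0.44 ± 0.083 (adjusted p = 0.000133). The first was lost without replicate 1 or 2 with no extra copy (0.144 and 0.121), without replicate 2 or 3 with 2 extra copies (0.184 and 0.0862) and with library size alone (0.0637). It was also lost with DESeq2 (0.156) and limma-voom (0.0551).

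Mrps2 and Mrps9 had smaller changes. Mrps2, between head and body of the subunit, was at 103.8, 101.2 and 106 CPM with 2 extra copies, 93.7, 88.3 and 93.6 CPM with no extra copy and 82.0, 93.1 and 87.6 CPM in uninduced cells. Its changes were 0.18 ± 0.055 (adjusted p = 0.0191) and 0.24 ± 0.054 (adjusted p = 0.000912), the first of them lost without replicate 2 with no extra copy (0.141), without replicate 3 with 2 extra copies (0.0661) and with library size alone (0.0601). The first was also lost with DESeq2 (0.115). Mrps9, of the head, was at 57.7, 58.7 and 55.2 CPM with 2 extra copies, 50.1, 51.2 and 46.7 CPM with no extra copy and 52.3, 53.7 and 51.9 CPM in uninduced cells. All 3 groups of Mrps9 were separate, with uninduced cells between the induced populations. Its change of 0.20 ± 0.067 against no extra copy (adjusted p = 0.0386) was lost without replicate 1, 2 or 3 with no extra copy (0.0735, 0.0601 and 0.126), without replicate 2 with 2 extra copies (0.12) and with library size alone (0.0953). That call was also lost with DESeq2 (0.183), no low-count filter (0.0541) and only the 6 libraries compared (0.0601). Mrps21, Mrps23, Mrps30 and Mrps35 were called against uninduced cells alone, and the first 3 of these under every alternative, at 0.37 ± 0.086, 0.31 ± 0.077 and 0.26 ± 0.069 (adjusted p = 0.00163, 0.00281 and 0.00523).

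Mrps6, of the platform of the subunit, was at 21.9, 22.4 and 22.7 CPM with 2 extra copies, 19.9, 19.5 and 22.4 CPM with no extra copy and 15.5, 15.4 and 16.0 CPM in uninduced cells. Uninduced cells were clearly lowest, and the induced populations overlapped. The changes against uninduced cells were 0.52 ± 0.10 with 2 extra copies (adjusted p = 0.000323) and 0.38 ± 0.11 with no extra copy (adjusted p = 0.0124). The call with no extra copy was lost without its replicate 3 (0.0569) or uninduced replicate 2 (0.0515), and with DESeq2 (0.115). Mrps34, which human cells need to keep the small ribosomal RNA stable, was at 45.8, 52.0 and 56.9 CPM with 2 extra copies, 49.0, 48.7 and 41.9 CPM with no extra copy and 36.4, 39.2 and 44.2 CPM in uninduced cells. Its change with 2 extra copies against uninduced cells was 0.38 ± 0.084 (adjusted p = 0.00115). Exons of Mapk8ip3 on the other strand cover 63.4% of its exonic bases and Nme3 on the same strand 37.0%, so its value is uncertain. Mrps7, of the head of the subunit, was at 58.0, 67.0 and 62.0 CPM with 2 extra copies, 65.6, 64.7 and 60.2 CPM with no extra copy and 51.0, 55.3 and 59.4 CPM in uninduced cells. It was called with no extra copy against uninduced cells alone, by 0.21 ± 0.068 (adjusted p = 0.0352), and this was lost without uninduced replicate 1 or 2 (0.207 and 0.0982) or replicate 1 or 2 with no extra copy (0.126 and 0.143) and with the GC trend removed (0.0898). The call was also lost with DESeq2 (0.199) and limma-voom (0.0502). Mrps36, better known as a subunit of the 2-oxoglutarate dehydrogenase complex, was at 26.6, 24.4 and 24.2 CPM with 2 extra copies, 28.6, 27.8 and 28.3 CPM with no extra copy and 22.4, 25.8 and 25.6 CPM in uninduced cells, and was not called.

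**Figure D4:**
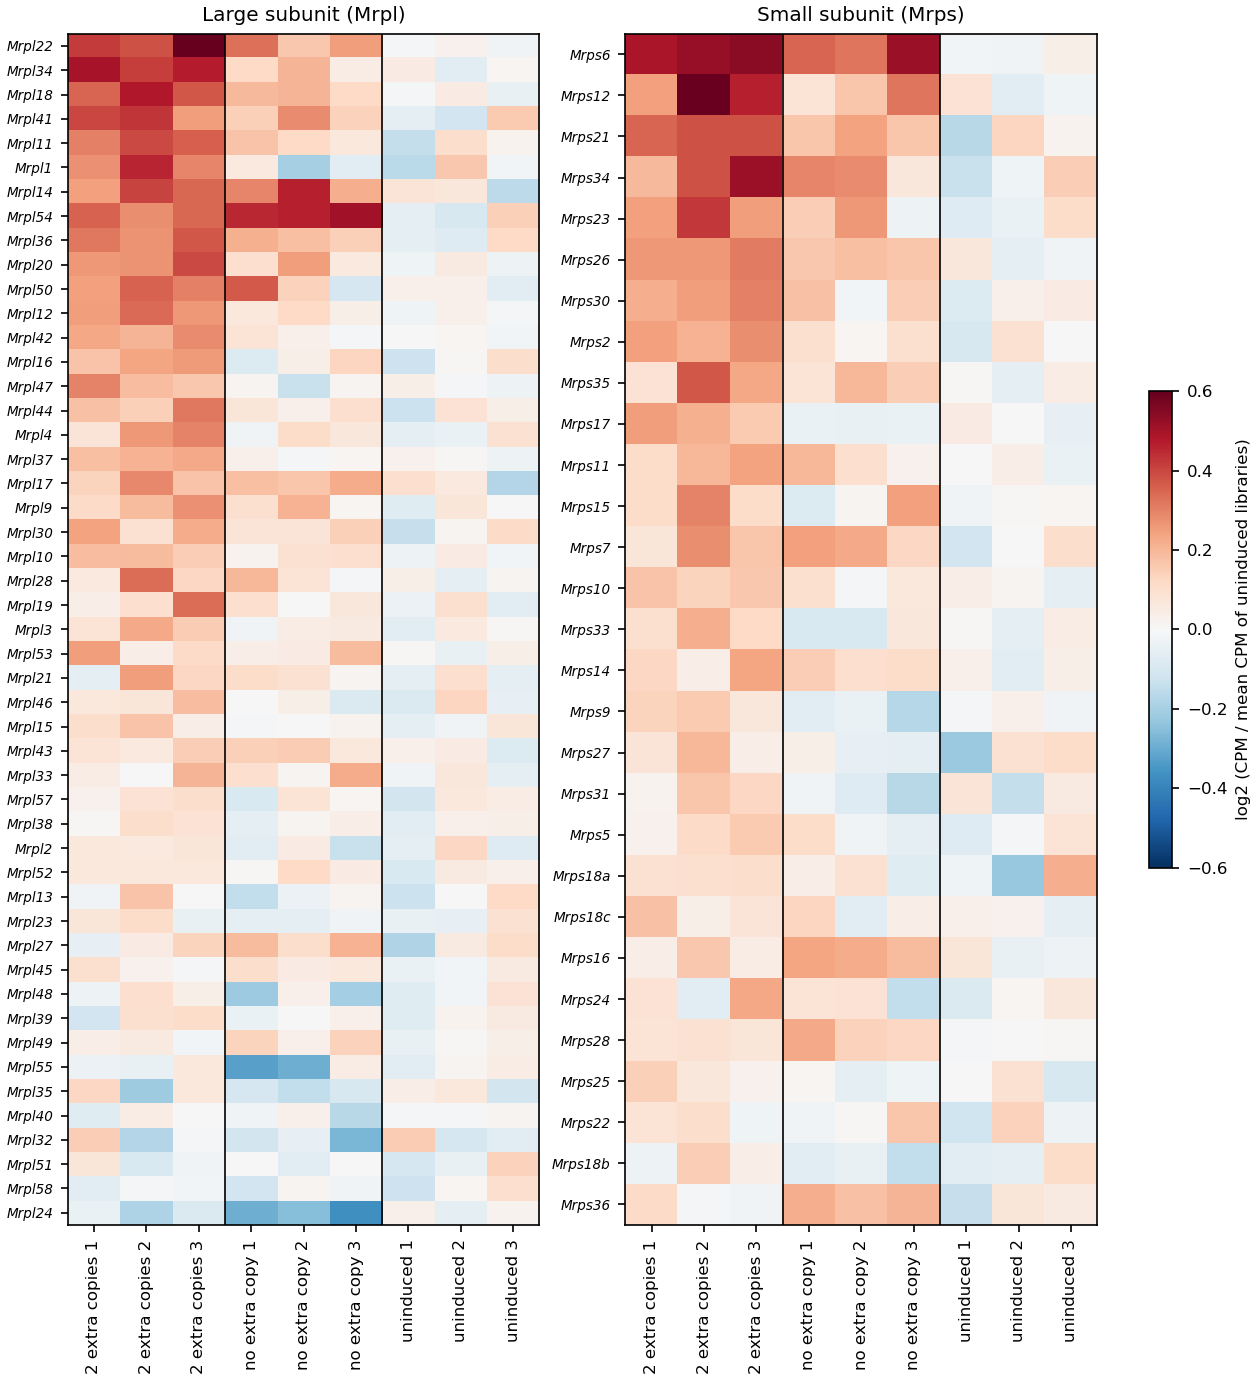
The 78 ribosomal members (rows, ordered by mean level with 2 extra copies relative to uninduced cells) in the 9 libraries (columns), coloured by the log2 ratio of CPM to the mean CPM of the uninduced libraries. Most members are red in the 3 leftmost columns, of cells with 2 extra copies, and Mrpl24, in the last row of the large subunit, is darkest blue in the 3 libraries with no extra copy.

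Levels of different genes are set beside each other per kilobase of transcript, as means over the 9 libraries. The median was 45.4 CPM per kilobase for import and 40.5 for the ribosome, and the ranges of the parts overlapped widely. Within import the outer membrane genes had a median of 98.5, the small chaperones 37.4 and the inner membrane genes 15.8 CPM per kilobase. Timm23 was the most abundant member at 229 CPM per kilobase, and Timm21, of the same complex, the least abundant tested one at 5.95. Tomm20 led the outer membrane at 156 CPM per kilobase, with Tomm40l lowest among the tested Tomm genes at 8.89. Timm13 led the small chaperones at 149 CPM per kilobase. The large subunit ran from Mrpl32 at 7.67 to Mrpl42 at 128 CPM per kilobase, around a median of 44.4. The small subunit ran from Mrps26 at 9.21 to Mrps18b at 117 CPM per kilobase, around a median of 37.4. This scale depends on the annotated transcript lengths.

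Of the ribosomal extremes, Mrpl42 and Mrps26 were called and Mrpl32 and Mrps18b were not. Mrpl42 was at 92.9, 91.1 and 96.2 CPM with 2 extra copies, 83.6, 80.6 and 78.3 CPM with no extra copy and 79.2, 79.8 and 78.2 CPM in uninduced cells, with changes of 0.21 ± 0.054 (adjusted p = 0.00669) and 0.24 ± 0.053 (adjusted p = 0.000782). Mrps26 was at 42.4, 42.5 and 43.9 CPM with 2 extra copies, 39.6, 40.1 and 39.8 CPM with no extra copy and 37.1, 34.1 and 34.9 CPM in uninduced cells, and was called against uninduced cells at 0.28 ± 0.074 (adjusted p = 0.00482). In both genes the 3 libraries with 2 extra copies were the highest. DESeq2 lost the call of Mrpl42 against no extra copy (0.0621) and that of Mrps26 (0.0507). Mrpl32 was at 26.5, 21.1 and 23.8 CPM with 2 extra copies, 22.1, 23.1 and 19.8 CPM with no extra copy and 26.6, 22.3 and 22.8 CPM in uninduced cells. Mrps18b was at 109, 123 and 114 CPM with 2 extra copies, 106, 108 and 100.3 CPM with no extra copy and 106, 107 and 119.9 CPM in uninduced cells. The groups of Mrpl32 overlapped throughout.

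**Figure D5:**
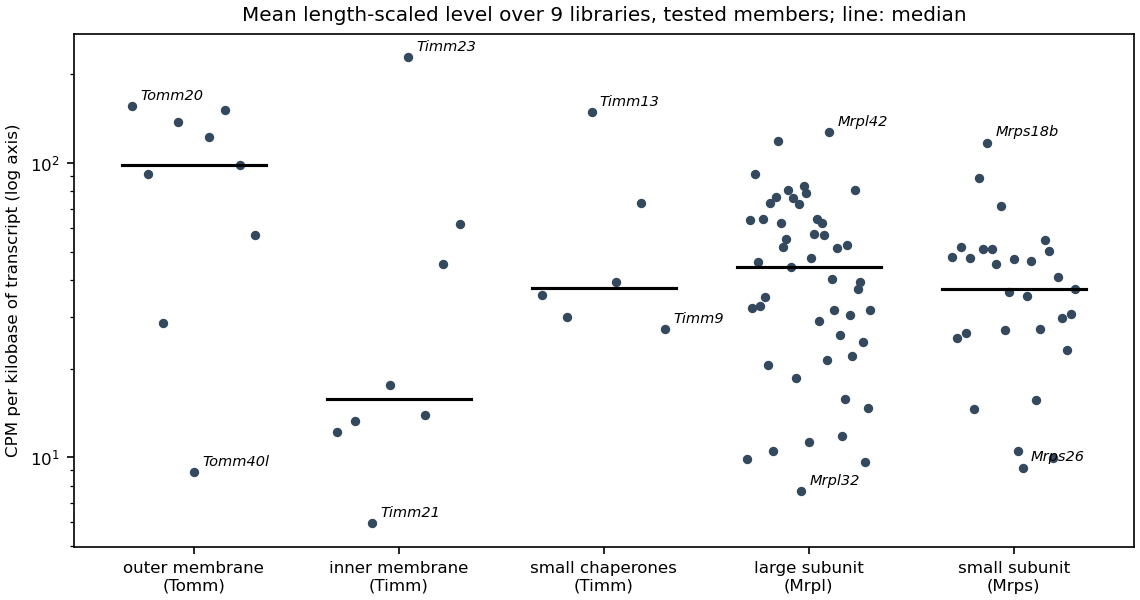
Mean level over the 9 libraries in CPM per kilobase of transcript (y axis, log scale) of every tested member, by subgroup (x axis), with the median as a line and the highest and lowest members named. Medians run from 15.8 for the inner membrane genes to 98.5 for the outer membrane genes.

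Partners with other symbols were counted for context, in the order of 2 extra copies against no extra copy, 2 extra copies against uninduced cells and no extra copy against uninduced cells. Of all genes tested, 8.30%, 12.8% and 7.10% were called higher and 7.70%, 12.1% and 6.39% lower in that order. Of 5 further proteins of the mitochondrial ribosome, edgeR called 2, 2 and 0 higher, and 3, 3 and 0 at an unadjusted p below 0.05. DESeq2 called 1, 1 and 0. The first count was 1 without replicate 2 or 3 of either induced population or any 1 uninduced library, and the second 1 without replicate 2 or 3 with 2 extra copies or uninduced replicate 1. Ptcd3, of the small subunit, averaged 209 ± 6.7 CPM with 2 extra copies, 180.1 ± 5.7 CPM with no extra copy and 184 ± 2.1 CPM in uninduced cells (SD, n = 3 each). It rose with 2 extra copies, by 0.22 ± 0.042 (adjusted p = 0.000283) and 0.19 ± 0.041 (adjusted p = 0.000753). Of 37 factors of ribosome assembly and mitochondrial translation, 9, 10 and 0 rose and 0, 0 and 2 fell by the same test (unadjusted, 14, 16 and 3 against 0, 0 and 5). The 2 that fell were 5.41% of the list, near the 6.39% of all genes. DESeq2 called 7, 7 and 0 higher and 0, 0 and 1 lower. The count of 2 that fell was 1 without replicate 2 with 2 extra copies, without replicate 1, 2 or 3 with no extra copy or without uninduced replicate 2 or 3. Without replicate 2 with no extra copy or without uninduced replicate 3, 2 rose there, and 1 rose without replicate 1 with 2 extra copies; 1 fell in the first comparison without replicate 2 with no extra copy. The elongation factors Tufm and Gfm1 both rose with 2 extra copies: Tufm averaged 169 ± 10.1 CPM, against 144 ± 5.6 CPM with no extra copy and 139.7 ± 5.0 CPM in uninduced cells, and Gfm1 averaged 109 ± 2.0 CPM, against 93.3 ± 2.1 CPM with no extra copy and 92.1 ± 2.5 CPM in uninduced cells. Lrpprc, which binds mitochondrial messenger RNA, rose by 0.22 ± 0.039 (adjusted p = 0.000123) and 0.16 ± 0.039 (adjusted p = 0.0019) with 2 extra copies. Noa1, a GTPase that acts on the small subunit, averaged 46.8 ± 2.4 CPM with 2 extra copies, 36.02 ± 0.98 CPM with no extra copy and 33.0 ± 2.4 CPM in uninduced cells. Guf1, a translation factor, was at 57.3 ± 2.5 CPM with 2 extra copies, 43.3 ± 2.3 CPM with no extra copy and 57.3 ± 4.7 CPM in uninduced cells, and fell with no extra copy against uninduced cells by 0.41 on the log2 scale (adjusted p = 0.000106).

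Of 28 import and processing partners, 8, 9 and 2 rose and 0, 0 and 1 fell (unadjusted, 10, 12 and 7 against 0, 1 and 3). The shares that rose were 28.6%, 32.1% and 7.14%, beside 8.30%, 12.8% and 7.10% of all genes tested. In the last comparison the share that rose was thus near that of all genes, and 3.57% fell, beside 6.39% of all genes. DESeq2 called 7, 7 and 1 higher and 0, 0 and 1 lower. Without replicate 1 with 2 extra copies the second count was 14, and with no extra copy 1 rose without replicate 1 or 2 with no extra copy or uninduced replicate 1, while 2 fell without replicate 1 of either induced population. In the first comparison 1 fell without uninduced replicate 2. Chchd4, which drives the oxidative folding of the small TIM proteins, was at 112, 111 and 116 CPM with 2 extra copies, 89.9, 87.8 and 74.3 CPM with no extra copy and 72.4, 71.5 and 77.9 CPM in uninduced cells. It rose with 2 extra copies by 0.41 ± 0.058 (adjusted p = 5.75e-06) and 0.61 ± 0.058 (adjusted p = 1.09e-09). With no extra copy it rose by 0.20 ± 0.061 (adjusted p = 0.0206), which was lost without replicate 1 or 2 with no extra copy (0.138 and 0.154) or uninduced replicate 1 or 2 (0.081 and 0.117), and with DESeq2 (0.141). Hspd1, the matrix chaperonin, averaged 1353 ± 28.8 CPM with 2 extra copies, 1140.0 ± 22.01 CPM with no extra copy and 1027 ± 5.0 CPM in uninduced cells, and rose in all 3 comparisons. Its partner Hspe1 rose with 2 extra copies by 0.29 ± 0.047 (adjusted p = 0.000105) and 0.42 ± 0.046 (adjusted p = 2.09e-07). Hspa9, the motor that Timm44 anchors, averaged 982 ± 25.4 CPM with 2 extra copies, 918 ± 19.9 CPM with no extra copy and 1040.0 ± 4.8 CPM in uninduced cells, and fell with no extra copy against uninduced cells by 0.18 on the log2 scale (adjusted p = 0.000129). Of 17 tested genes for the expression of mitochondrial DNA and its nuclear regulators, 5, 5 and 0 rose and 1, 0 and 1 fell (unadjusted, 6, 5 and 2 against 2, 0 and 2). The 1 that fell was 5.88% of the list, beside 7.70% of all genes in the first comparison and 6.39% in the last. DESeq2 called 1, 2 and 0 higher and none lower. The first count was 1 without replicate 2 with 2 extra copies, 2 without replicate 2 with no extra copy and 3 without replicate 1 or 3 with no extra copy. Twnk, the mitochondrial helicase, averaged 89.2 ± 3.8 CPM with 2 extra copies, 72.7 ± 1.8 CPM with no extra copy and 78.3 ± 0.45 CPM in uninduced cells, a rise of 0.30 ± 0.056 (adjusted p = 0.000239) and 0.19 ± 0.054 (adjusted p = 0.00879; 0.0509 without replicate 3 with 2 extra copies). DESeq2 lost the second call of Twnk (0.0667). Its exons overlap those of Mrpl43 on the other strand. Tefm, the elongation factor of mitochondrial transcription, averaged 24.3 ± 1.1 CPM with 2 extra copies, 19.4 ± 1.4 CPM with no extra copy and 25.7 ± 2.4 CPM in uninduced cells, and fell with no extra copy by 0.42 on the log2 scale (adjusted p = 0.00386; 0.0552 with DESeq2). Polg, the mitochondrial DNA polymerase, was the gene called lower with 2 extra copies against no extra copy, at -0.14 (adjusted p = 0.0335). Its value was -0.03 with the length trend removed (0.729), and the call was lost without replicate 1, 2 or 3 with 2 extra copies (0.113, 0.0532 and 0.137), without replicate 1 or 3 with no extra copy (0.0732 and 0.155) and with DESeq2 (0.218).

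Some members can share reads with other genes. A close copy, or another gene's exons over at least 10% of the exonic bases, was found for 5 import and 18 ribosomal members, among the named ones Timm23, Tomm6, Tomm40l, Mrpl12, Mrpl14, Mrpl18, Mrpl24, Mrpl47, Mrps6, Mrps7, Mrps18b and Mrps34. Without these 23, 7 of 18 import and 10 of 60 ribosomal members rose with 2 extra copies against no extra copy. Against uninduced cells 13 and 25 rose, and with no extra copy against uninduced cells 6 and 2 rose. The last ribosomal share, 3.33%, was below the 7.10% of all genes tested.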

How the data were processed

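Gene-level expected counts of 9 mouse ESC libraries were deposited by the authors; per the submitters' processing notes they came from RSEM 1.17 on GRCm38 with annotation release 84, and cutadapt, Picard and limma are named there with no role. Neither the aligner nor the use of strand is given in the sources used here. Before fitting, counts were rounded to whole numbers. Genes were named with GENCODE M21, which matched 35432 of 35771 identifiers.

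The 13424 genes kept by filterByExpr were fitted with edgeR 4.0.16 (robust quasi-likelihood F-test, TMM factors, all 9 libraries, 1 coefficient per group, R 4.3.3), and p-values were adjusted by the Benjamini-Hochberg method. A standard error (SE) is the absolute log2 change over the square root of F. Library totals of 4165286 to 8872303 counts set the precision. Close copies were found with minimap2 2.31-r1302 at 95% identity over 50% of a transcript.

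Members with values of every library were, per comparison and part, up to 6 called higher and up to 6 called lower with the largest change and a mean of at least 10 CPM, those called in all 3 comparisons and the extremes of level in each subgroup; of other lists, up to 3 genes per direction with the smallest p. Other members are named beside subgroup counts. The members and lists were chosen with earlier results of these data known. Alternatives were other scalings and filters, DESeq2 1.42.0, limma-voom 3.58.1, removed length or GC trends, the replicate number as a block, only the 6 libraries compared, and leaving out each library.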

Additional observations from a re-analysis of the deposited data

How the results depend on the processing

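Ribosomal members called higher numbered 14 with 2 extra copies against no extra copy, 32 with 2 extra copies against uninduced cells and 6 with no extra copy against uninduced cells; DESeq2 gave 5, 20 and 1, and leaving out 1 library gave 7 to 21, 22 to 36 and 2 to 8. Import members called higher numbered 9, 15 and 6; DESeq2 gave 6, 12 and 1, and leaving out 1 library gave 7 to 12, 12 to 15 and 2 to 6. No called member changed sign under any alternative run. With the replicate block and the length trend removed together, 1 ribosomal member (Mrpl24) was called lower with 2 extra copies against uninduced cells. With no extra copy against uninduced cells, 1 import member (Tomm34) was called lower with upper-quartile factors, with the length or the GC trend removed, with block and length trend together and with only the 6 libraries compared, and 0 to 1 when 1 library was left out. The cause was not tested. The labels do not say whether replicate numbers pair the libraries. Between cells with 2 extra copies and uninduced cells, same-numbered libraries correlated at 0.211, 0.075 and 0.074. Different-numbered ones correlated there at -0.137 to 0.066, below each same-numbered value. For the other pairs of groups, same-numbered libraries correlated at -0.102 to 0.023 and different-numbered ones at -0.071 to 0.118. A shared culture or day was thus neither shown nor excluded. With the replicate block alone, 14, 32 and 7 ribosomal and 10, 15 and 6 import members rose. For all genes, DESeq2 called 643, 1088 and 399 higher and 418, 801 and 407 lower. The smallest change called among members was 1.12-fold, of Tomm40.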
